A study of Mus musculus with 41 samples.

Results

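The late callus of old mice was compared with their early callus: the bone repair tissue of 25-month-old mice collected 20 days after a tibial fracture, against that collected 5 days after it. The comparison takes in every old-mouse array of those days, 5 at day 20 and 5 at day 5, which are 10 of the 41 arrays of the series. Mice aged 25 months or 5 months (the young mice of the series) came from the NIH aged rodent colony and received a closed fracture of both tibiae, made with a blunt guillotine after the bone had been stabilised with an intramedullary pin. RNA was taken at 0, 5, 10 and 20 days from 5 or 6 different mice for each age and day, and hybridised to Affymetrix Mouse Gene 1.0 ST arrays. No genetic change or drug separated the groups, and the labels describe 1 pin, fracture and analgesic protocol for all of them without saying whether bone taken at day 0 had been fractured. The labels state neither strain nor sex, and say that an extract was either whole bone or callus alone without saying which array held which.

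A fracture in a stabilised long bone heals through a clot and an inflammatory phase, then a soft callus of cartilage and fibrous tissue, then a hard callus of woven bone that is remodelled. Neutrophils and macrophages clear debris in the first phase, chondrocytes lay down and enlarge within the soft callus, and osteoblasts, vessels and osteoclasts replace it with bone and marrow. Day 5 and day 20 stand on either side of the cartilage phase, so the comparison sets the inflammatory stage against the bony one.

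Values are the normalised levels on the log2 scale that the study deposited, so a difference of 1 is a doubling. Array medians lay between 5.402 and 5.444 in day 20 callus and between 5.392 and 5.439 in day 5 callus. Genes were tested with limma in 1 model of all 41 arrays, and "rose", "fell" and "called" refer to an adjusted p under 0.05 over all 19938 genes. An array reads a bulk extract, so fewer cells of a type and less RNA per cell cannot be told apart. The extracts held more than callus cells: the skeletal muscle list averaged 9.07 at day 20 and 9.58 at day 5, and the muscle actin Acta1 stood at 11.62 ± 0.48 at day 20 and 12.12 ± 0.21 at day 5 (SD, n = 5 each).

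Of these arrays, 4 stood apart from the others of their day and are named beside the results they touch. Day 20 replicate 2 had the lowest red-cell signal, with a mean of the erythroid list of 6.46 against 7.87 to 8.90 in the other day 20 arrays, the lowest muscle mean (8.07) and the highest means of the osteoblast, osteocyte and cartilage lists. Day 20 replicate 3 had the highest mean of the T and NK cell list, 7.07 against 5.36 to 6.12 in the rest of that day. Day 5 replicate 4 had the lowest mean of the fibrous matrix list (7.91) and of the mitosis list (6.35). Day 5 replicate 5 had a mean of the epidermis list of 6.19, against 4.48 to 4.71 in the other day 5 arrays. The sample names add a second division, since all 5 day 20 names and 1 day 5 name begin with a digit and 4 day 5 names begin with a letter. What the forms stand for is not given in the labels, and the 2 forms nearly coincide with the 2 days.

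**Figure D1:**
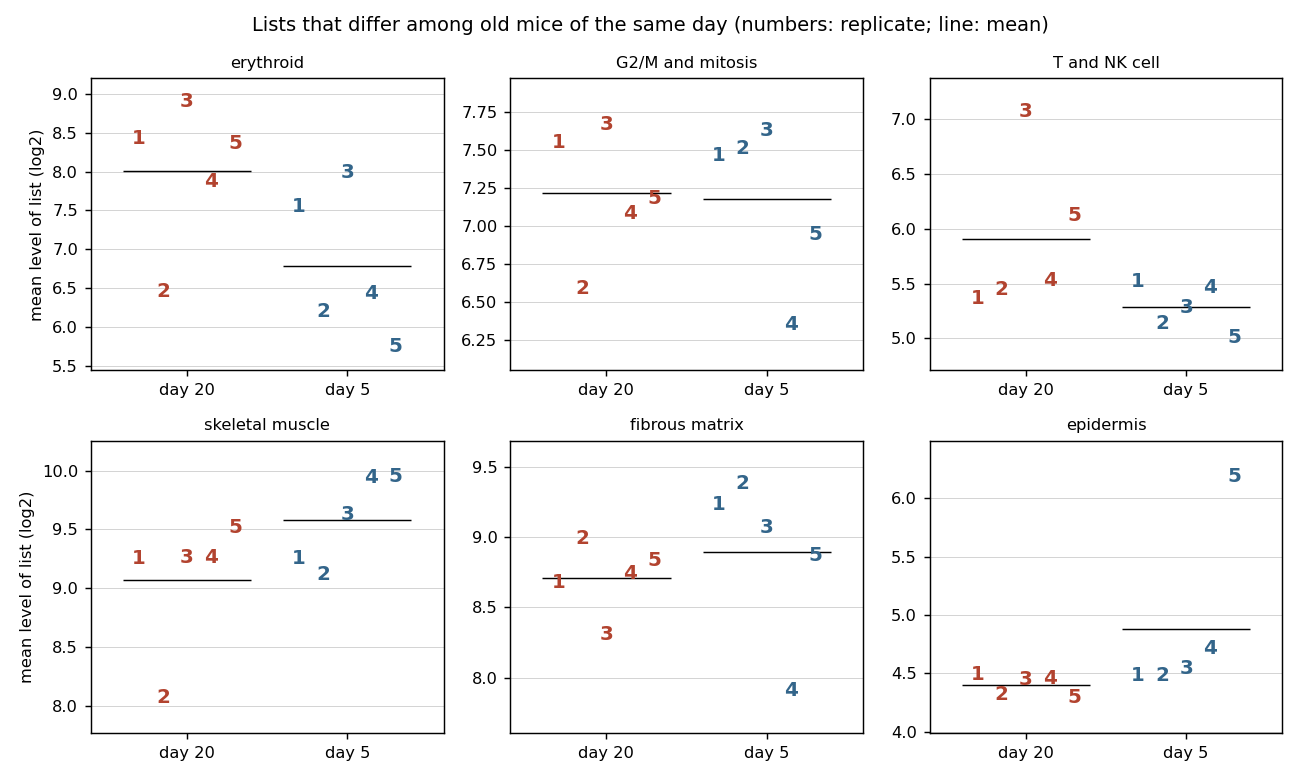
Mean level (log2, vertical axes, each with its own range) of 6 gene lists in each old-mouse array, day 20 in red on the left and day 5 in blue on the right; each number is the replicate and the black line is the mean of the day. Day 20 replicate 2 lies lowest for erythroid (6.46), mitosis (6.59) and muscle genes (8.07), day 20 replicate 3 highest for T and NK cell genes (7.07), day 5 replicate 4 lowest for fibrous matrix (7.91) and day 5 replicate 5 highest for epidermis (6.19).

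Between the early and the late callus of old mice, genes of bone resorption, bone formation and vessels rose, while genes of inflammatory signalling, tissue macrophages and embryonic muscle fell. In all, 3434 of 19938 genes were called (17.2%), 1963 higher at day 20 (9.85%) and 1471 lower (7.38%). At least 2-fold changes were called for 269 genes higher (1.35%) and 266 lower (1.33%). The median change over all genes was 0.035. The 5 day 20 values and the 5 day 5 values did not overlap for 1856 genes (9.31%), of which 1594 were called (7.99% of all genes). With the form of the sample name as a block, 1619 genes were called, all of them among the 3434, and without the 4 arrays that stood apart 1581 were called, of which 1342 were among them.

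The 14 largest rises without overlap included Slitrk6, a transmembrane protein best known from neurons. Slitrk6 was at 6.89, 6.89, 5.98, 7.21 and 6.87 in day 20 callus, against 4.50, 4.67, 4.0, 3.46 and 3.67 in day 5 callus. The lowest day 20 array, replicate 3, lay above the highest day 5 array. The change was 2.71 ± 0.28 (log2, SE; 6.55-fold, limma adjusted p = 1.2e-08). Many of the other 13 are known from bone cells: Phex and Dmp1 of osteocytes, Col10a1 of enlarged chondrocytes, and Slc9b2, Mmp9, Oscar, Dcstamp and Atp6v0d2 of osteoclasts. They were joined by Arsb, a lysosomal sulfatase that degrades chondroitin sulfate (2.55), Wif1 (2.54), Gdpd2, a glycerophosphodiester phosphodiesterase (2.37), Ptprz1 (2.34) and the membrane protein gene Tm4sf19 (2.30).

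The steepest fall was that of Prg4, which encodes lubricin, the lubricating proteoglycan of joint surfaces and tendon sheaths. Prg4 was at 6.13, 6.10, 6.34, 5.64 and 6.78 in day 20 callus, against 10.38, 10.71, 10.68, 10.19 and 10.76 in day 5 callus. All 5 day 5 arrays lay more than 3 log2 units above every day 20 array, and the change was -4.35 ± 0.42 (SE; limma adjusted p = 4.2e-09), a level 20.4-fold lower at day 20. The other 13 largest falls were Cxcl5 (-3.99), Cxcl2 (-3.74), Serpina3n (-3.44), Il6 (-3.44), Ccl7 (-3.32), Myh3 (-3.12), Arg1 (-2.87), Mymk (-2.86), Ccl2 (-2.85), Has2 (-2.78), Ankrd1 (-2.76), Saa3 (-2.64) and Cd163 (-2.64). They comprise chemokines and acute-phase genes, a hyaluronan synthase (Has2), genes of regenerating or stressed muscle (Myh3, Mymk, Ankrd1) and a haemoglobin scavenger receptor of macrophages (Cd163).

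**Figure D2:**
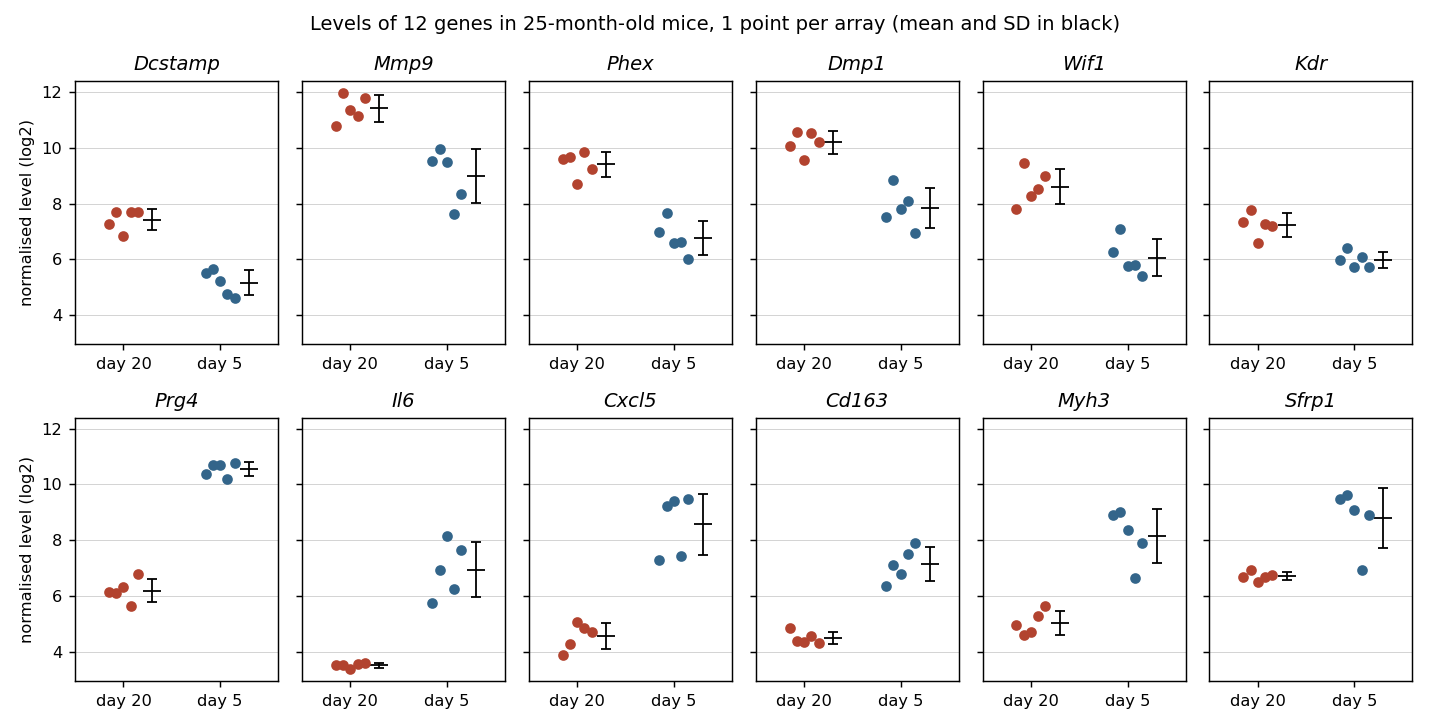
Normalised level (log2, vertical axis) of 12 genes in old mice, 1 point per array, with day 20 in red on the left and day 5 in blue on the right of each panel, and the mean and SD in black. In every panel the 5 day 20 arrays lie apart from the 5 day 5 arrays, above them in the top row and below them in the bottom row; Il6 lies between 3.39 and 3.60 at day 20 and between 5.75 and 8.15 at day 5.

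Osteoclasts, the multinucleate cells that resorb bone, had the most uniform list: 16 of its 18 measured genes rose and none fell, beside 9.85% of all genes called higher, and the median change was 1.43. Dcstamp, which is needed for osteoclast precursors to fuse, was at 7.28, 7.68, 6.82, 7.68 and 7.68 in day 20 callus, against 5.52, 5.67, 5.24, 4.77 and 4.63 in day 5 callus. The groups lay more than 1 log2 unit apart at their nearest, and the change was 2.26 ± 0.23 (SE; 4.79-fold, limma adjusted p = 6.4e-09). Slc9b2, a sodium/proton exchanger of osteoclasts, rose by 2.44 ± 0.31, and Oscar, an osteoclast receptor that stimulates their formation, by 2.40 ± 0.31 (limma adjusted p = 4.2e-07 and 7.8e-07). Atp6v0d2, also needed for fusion and a subunit of the proton pump that acidifies the resorption pit, averaged 10.76 ± 0.25 at day 20 and 8.50 ± 0.95 at day 5 (SD, n = 5 each).

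The matrix-degrading enzymes of the osteoclast rose as well. Mmp9, a gelatinase also stored by neutrophils, was at 10.79, 11.96, 11.36, 11.15 and 11.78 in day 20 callus, against 9.52, 9.96, 9.5, 7.63 and 8.34 in day 5 callus, without overlap (5.35-fold higher, limma adjusted p = 2.2e-05). Among the 21 measured genes of the neutrophil list Mmp9 was the only one called higher. The part of neutrophils in the change of Mmp9 was not tested. Ctsk, the collagen-cleaving cathepsin K, rose by 1.55 ± 0.31 (limma adjusted p = 0.0005). For Acp5, the tartrate-resistant acid phosphatase used to stain osteoclasts, the groups overlapped: the day 20 arrays lay between 11.31 and 12.07 and the day 5 arrays between 9.34 and 11.35. Its change was 1.32 ± 0.33 with limma adjusted p = 0.0049, and without the 4 arrays that stood apart it was 0.56 with limma adjusted p = 0.41. Calcr, the calcitonin receptor, rose by 0.60 ± 0.11 and its day 5 arrays lay within 4.42 to 4.48, a narrow range near the low end of the scale.

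Nfatc1, the transcription factor of osteoclast formation, and Tcirg1, a proton pump subunit, did not pass the test, with changes of 0.27 and 0.41. Both were chosen for mention after their values were seen. Car2, a carbonic anhydrase shared by osteoclasts and red cells, averaged 10.45 ± 0.88 at day 20 and 8.24 ± 1.22 at day 5 (SD, n = 5 each). Its lowest day 20 value, 8.92, was that of replicate 2, the array with the lowest erythroid mean. The part of red cells in the change of Car2 was not tested. Without the 4 arrays that stood apart, 10 of the 18 osteoclast genes were called and the median change was 1.02.

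The lysosomal and proton pump list overlaps with osteoclast function. Of its 17 measured genes 9 were higher (52.9%, beside 9.85% of all genes) and 2 lower (11.8%, beside 7.38%). Without the 4 arrays that stood apart 6 were higher and 1 was lower. Atp6v1b2, a catalytic-head subunit of the vacuolar proton pump, averaged 10.11 ± 0.21 at day 20 and 8.93 ± 0.36 at day 5, and Atp6v1a averaged 9.33 ± 0.33 and 8.61 ± 0.23 on those days (SD, n = 5 each). Hexa, a subunit of lysosomal hexosaminidase, rose by 1.01. Ctsl, the lysosomal protease cathepsin L, went the other way without overlap, at 9.09, 9.20, 8.84, 9.44 and 9.39 at day 20, against 9.82, 9.99, 10.02, 10.36 and 10.53 at day 5 (change -0.96 ± 0.14, limma adjusted p = 9.5e-06).

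Genes of osteoblasts, the cells that secrete bone matrix, rose in 14 of 20 measured members with none lower and a median change of 1.06. Dlx5, a homeobox factor of the osteoblast lineage, was at 8.09, 9.83, 8.63, 8.29 and 9.22 in day 20 callus, against 7.40, 7.59, 7.48, 6.24 and 6.03 in day 5 callus. Its change was 1.87 ± 0.33 (limma adjusted p = 8.7e-05). Sp7, also called osterix, the factor without which osteoblasts do not form, averaged 9.14 ± 0.48 at day 20 and 7.49 ± 0.80 at day 5 (SD, n = 5 each). Smpd3, a sphingomyelinase needed for mineralisation, averaged 8.83 ± 0.49 at day 20 and 7.16 ± 0.73 at day 5.

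Structural bone proteins had high signal on both days. Col1a1, the main chain of type I collagen, was at 12.35, 12.28, 11.78, 12.50 and 12.20 in day 20 callus, against 11.27, 11.86, 11.39, 9.61 and 10.90 in day 5 callus. Replicate 4 was the lowest at day 5, and the highest day 5 array overlapped with the lowest day 20 array. The change of Col1a1 was 1.22 ± 0.34 (limma adjusted p = 0.011), and 0.87 with limma adjusted p = 0.065 without day 5 replicate 4. Ibsp, the bone sialoprotein, averaged 11.94 ± 0.29 at day 20 and 11.66 ± 0.68 at day 5, a change of 0.29 ± 0.29 that did not pass the test. Without the 4 arrays that stood apart, 2 of the 20 osteoblast genes were called, although the median change was 0.57, and with the form of the sample name as a block 7 were called with a median of 0.97.

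Osteocytes, the cells embedded in bone, had 8 of 14 measured genes higher (57.1%, beside 9.85% of all genes) and 1 lower (7.1%, beside 7.38%). The median change of the list was 0.56. Phex, an endopeptidase that controls phosphate and mineral, was at 9.58, 9.67, 8.71, 9.84 and 9.24 in day 20 callus, against 6.99, 7.65, 6.57, 6.62 and 6.03 in day 5 callus (6.22-fold higher, limma adjusted p = 3.4e-06). Dmp1, a phosphoprotein of the osteocyte matrix, was at 10.07, 10.56, 9.57, 10.53 and 10.22 at day 20, against 7.52, 8.84, 7.82, 8.08 and 6.93 at day 5. Neither gene overlapped between the days, and Dmp1 changed by 2.35 ± 0.45 (limma adjusted p = 0.00024). Mepe, a mineralisation regulator of osteocytes, rose by 1.48 ± 0.22, and Ptprz1, a receptor phosphatase, by 2.34 ± 0.36.

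Markers of the ends of the osteocyte series moved differently. Sost, the Wnt inhibitor of mature osteocytes, lay between 6.16 and 6.83 at day 20 and between 6.02 and 6.33 at day 5, with overlap, and its rise was small (0.40 ± 0.13, limma adjusted p = 0.031). Pdpn, also called E11, a marker of early osteocytes that fibroblasts and lymphatic vessels carry too, fell by 1.28 ± 0.24 and was chosen for mention after its values were seen. Its day 20 arrays lay between 7.08 and 8.02 and its day 5 arrays between 7.77 and 9.21. Without the 4 arrays that stood apart, 6 osteocyte genes were called higher, Dmp1 by 2.21 with limma adjusted p = 0.014.

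Wnt signalling, which drives osteoblast formation, had 11 of 37 measured genes higher (29.7%, beside 9.85% of all genes) and 2 lower (5.4%, beside 7.38%). The median change of the list was 0.18. The largest rises were of secreted inhibitors. Wif1, which binds Wnt proteins, was at 7.80, 9.45, 8.28, 8.51 and 9.0 in day 20 callus, against 6.25, 7.10, 5.78, 5.79 and 5.4 in day 5 callus (change 2.54 ± 0.34, limma adjusted p = 1.3e-06). Dkk1, which blocks the Wnt co-receptor, was at 6.94, 8.38, 7.72, 7.49 and 7.89 at day 20, against 5.67, 6.02, 5.27, 5.59 and 5.04 at day 5 (change 2.17 ± 0.29, limma adjusted p = 1.1e-06). Both were highest at day 20 in replicate 2 and showed no overlap.

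Another secreted inhibitor went the opposite way. Sfrp1 was at 6.69, 6.92, 6.52, 6.69 and 6.75 in day 20 callus, against 9.47, 9.62, 9.08, 6.94 and 8.90 in day 5 callus, so that day 5 replicate 4 lay just above the day 20 arrays and the rest of day 5 far above them. The change of Sfrp1 was -2.09 ± 0.37 (limma adjusted p = 9.4e-05), and its relative Sfrp2 fell by 1.14 ± 0.33. Rspo3, which amplifies Wnt signals, rose by 1.48 ± 0.19 without overlap (limma adjusted p = 5.4e-07). Without the 4 arrays that stood apart, 4 Wnt genes were called higher and 4 lower.

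In the BMP and TGF-beta list 10 of 26 measured genes rose (38.5%, beside 9.85% of all genes) and 2 fell (7.7%, beside 7.38%). Both without the 4 arrays that stood apart and with the form of the sample name as a block, 7 rose and 1 fell. Bmp2, the BMP ligand that fracture healing depends on, averaged 6.89 ± 0.18 at day 20 and 6.10 ± 0.22 at day 5, and Bmp3, a ligand that opposes BMP signalling, averaged 6.46 ± 0.56 and 5.01 ± 0.37 on those days (SD, n = 5 each). Grem1, a secreted BMP antagonist, rose by 1.14 ± 0.18 (limma adjusted p = 2.2e-05). Inhba, the activin A chain, was at 5.83, 6.27, 5.73, 6.48 and 6.00 in day 20 callus, against 8.05, 8.43, 8.55, 7.0 and 7.65 in day 5 callus. Inhba fell by 1.87 ± 0.24 without overlap (limma adjusted p = 7.9e-07), while the BMP target Id1 had a change of -0.16 that did not pass the test. In the hedgehog list 2 of 13 genes rose (15.4%, beside 9.85% of all genes), the receptor components Smo (0.62) and Boc (0.57). Neither was called without the 4 arrays that stood apart (limma adjusted p = 0.44 and 0.24) or with the form of the sample name as a block (0.1 and 0.098). The pathway targets Ptch1 (0.60, limma adjusted p = 0.13), Gli1 (0.14) and Hhip (0.14) were not called. Of the FGF and IGF list, 3 of 19 rose and 3 fell (15.8% each, beside 9.85% and 7.38% of all genes). Without the 4 arrays that stood apart 2 rose and 1 fell. The receptors Fgfr2 (1.11) and Fgfr3 (0.84) were among those higher, and the mesenchymal growth factor Fgf7 (-1.12) and the fetal growth factor Igf2 (-0.95) among those lower.

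Cartilage matrix genes divided between days 5 and 20: 6 of 28 measured genes rose (21.4%, beside 9.85% of all genes) and 3 fell (10.7%, beside 7.38%), among them Prg4, and the median change was 0.10. The median turned to -0.12 without the 4 arrays that stood apart, with 1 gene higher and 3 lower. Acan, the main cartilage proteoglycan, was at 7.10, 9.06, 6.19, 6.82 and 8.03 in day 20 callus, against 8.59, 8.74, 7.88, 5.51 and 6.34 in day 5 callus. The groups overlapped, and the change was 0.03 ± 0.50. Col2a1, the collagen of hyaline cartilage, changed by 0.71 ± 0.37 and did not pass the test. The day 10 means stood above both days, at 11.47 for Acan and 10.06 for Col2a1. Over the list the median day 10 minus day 5 change was 2.22 and the median day 20 minus day 10 change was -1.93. These steps share their arrays with the day 20 minus day 5 comparison and are given as values.

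The cartilage genes that did differ were of several kinds. Sox9, the master factor of chondrocytes, fell by 0.90 ± 0.22 (limma adjusted p = 0.0034), with overlap between the groups. Cilp, a matrix protein of the intermediate zone of articular cartilage, fell by 1.27 ± 0.28 without overlap and was chosen for mention after its values were seen. Clec3a, a lectin of cartilage matrix, and Chad, chondroadherin, rose by 1.79 ± 0.52 and 1.74 ± 0.47 (limma adjusted p = 0.014 and 0.009). Clec3a was at 6.36, 8.77, 5.65, 6.01 and 7.07 in day 20 callus, against 6.47, 4.71, 4.63, 4.70 and 4.39 in day 5 callus, so that replicate 2 was highest at day 20 and replicate 1 stood out at day 5. Without day 20 replicate 2, Clec3a changed by 1.29 with limma adjusted p = 0.075, and 3 cartilage genes were called higher. With the form of the sample name as a block, 1 cartilage gene was called higher.

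Genes of hypertrophic chondrocytes, the enlarged cells that precede bone, rose in 7 of 13 measured members with none lower and a median change of 1.19. Col10a1, the collagen made by those cells, was at 8.30, 10.72, 7.65, 8.03 and 9.07 in day 20 callus, against 7.35, 6.43, 5.99, 6.27 and 5.80 in day 5 callus. The groups did not overlap, replicate 2 was highest at day 20, and the change was 2.39 ± 0.38 (limma adjusted p = 2.3e-05). At day 10 Col10a1 averaged 11.44. Mmp13, the collagenase of hypertrophic chondrocytes and osteoblasts, averaged 11.62 ± 0.26 at day 20 and 9.97 ± 0.73 at day 5 (SD, n = 5 each). Panx3, a channel of the same cells, rose by 1.57 ± 0.42, and Ihh, the hedgehog ligand of prehypertrophic cells, changed by 0.37 ± 0.19 and was not called. Several members are on the osteoblast list too, among them Sp7, which rose, and Ibsp, which was not called. The counts of these lists therefore share genes. Without the 4 arrays that stood apart 3 of the 13 were called, with a median of 0.46.

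**Figure D3:**
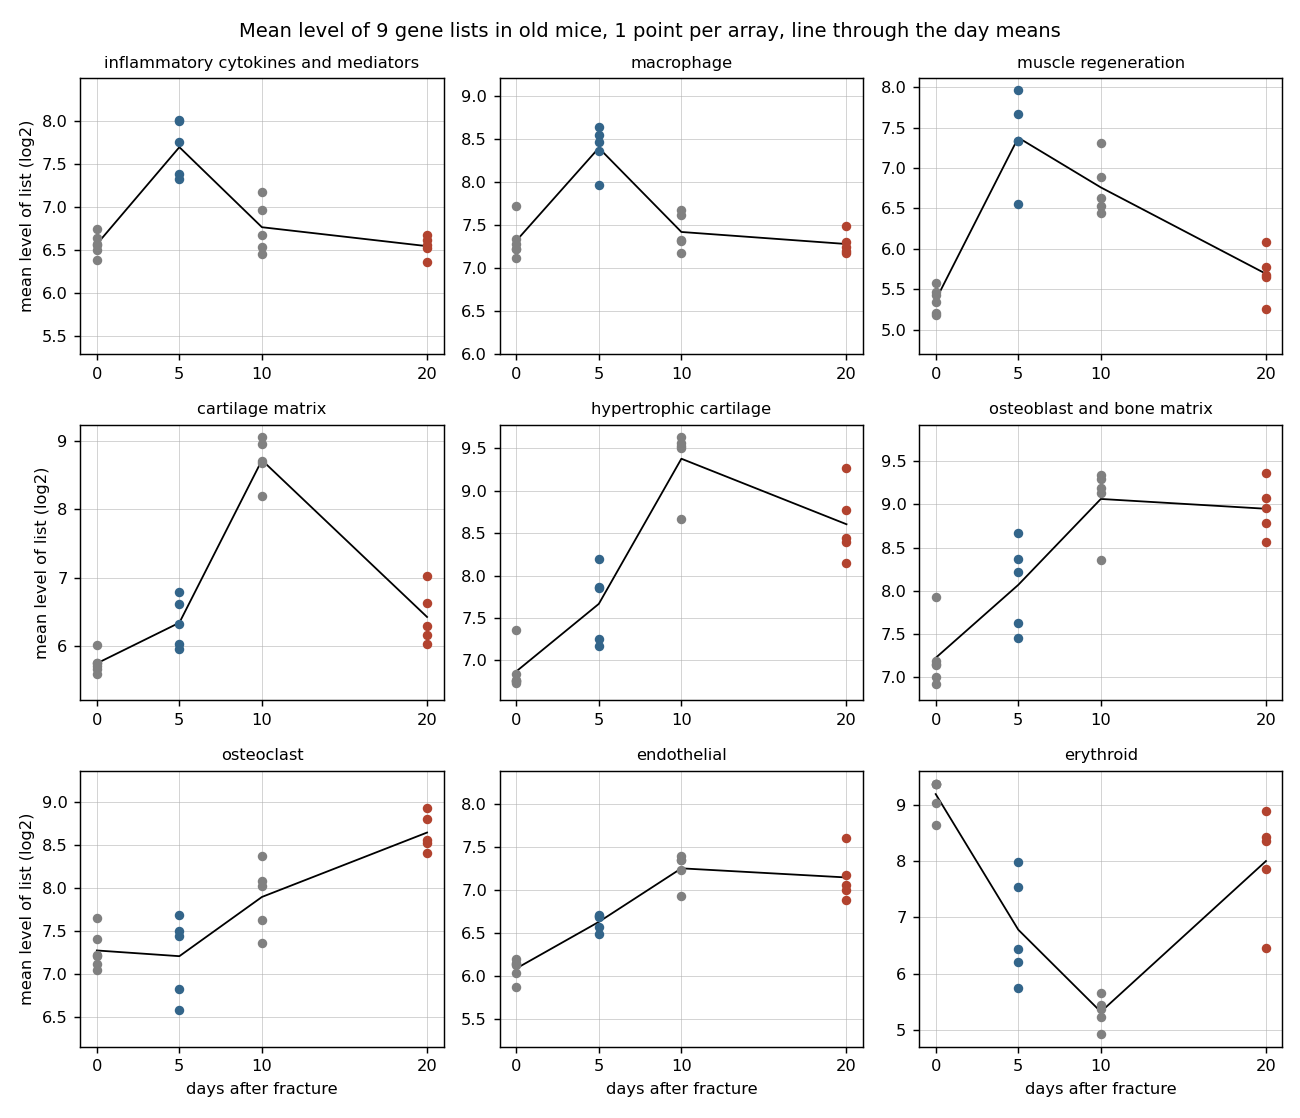
Mean level (log2, vertical axes, each with its own range) of 9 gene lists in old mice at 0, 5, 10 and 20 days after fracture (horizontal axis); each point is an array, day 20 in red, day 5 in blue and the other days in grey, and the line joins the day means. The cartilage matrix list is at 6.43 at day 20 and 6.34 at day 5 but at 8.72 at day 10, the osteoclast list is highest at day 20 (8.65), and the inflammatory and macrophage lists are highest at day 5 (7.70 and 8.39).

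Inflammatory cytokines and mediators fell in 21 of 38 measured genes (55.3%, beside 7.38% of all genes) and rose in 2 (5.3%, beside 9.85%). The median change of the list was -0.80. The promoters of Il6 and of the neutrophil chemokine genes Cxcl2 and Cxcl1 are shown because they carry the letters of the NF-kappa B consensus, the binding motif of the factor that switches on many genes of this kind. Each line gives the 250 bases before the RefSeq transcription start, all on the plus strand of GRCm38.p6, with the consensus match in capitals.
Il6, chr5:30012864-30013113: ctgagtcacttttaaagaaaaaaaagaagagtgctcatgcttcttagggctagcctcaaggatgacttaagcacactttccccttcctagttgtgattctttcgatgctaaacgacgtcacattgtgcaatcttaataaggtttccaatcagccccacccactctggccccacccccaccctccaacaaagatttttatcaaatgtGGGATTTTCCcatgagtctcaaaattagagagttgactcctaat
Cxcl2, chr5:90903649-90903898: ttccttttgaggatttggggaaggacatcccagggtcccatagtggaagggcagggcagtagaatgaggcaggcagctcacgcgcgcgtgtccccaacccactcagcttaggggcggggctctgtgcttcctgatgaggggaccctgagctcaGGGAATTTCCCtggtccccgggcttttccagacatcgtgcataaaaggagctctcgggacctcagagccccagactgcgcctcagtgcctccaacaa
Cxcl1, chr5:90890995-90891244: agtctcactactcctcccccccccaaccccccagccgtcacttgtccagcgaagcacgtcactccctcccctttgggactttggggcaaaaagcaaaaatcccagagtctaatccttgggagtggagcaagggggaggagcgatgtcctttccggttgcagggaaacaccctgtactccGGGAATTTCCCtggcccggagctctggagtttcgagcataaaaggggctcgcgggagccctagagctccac

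The match begins 44 bases before the start of Il6, 97 bases before that of Cxcl2 and 71 bases before that of Cxcl1. In Cxcl2 and Cxcl1 the capitals hold 2 overlapping matches, offset by 1 base. RefSeq windows of 300 bases (250 before to 50 after a start) were matched for 28 of the 38 inflammatory genes, and 9 of the 28 held the consensus on either strand (32.1%), against 9.55% of all 27025 genes with a window. Of those 9, 5 were called lower (Cxcl1, Cxcl2, Cxcl3, Il4ra and Il6), close to the share of the whole list that was called lower (21 of 38, 55.3%). Among all genes called that had a window, 14.5% of those lower and 11.9% of those higher held the consensus. Both lay above the 9.55% of all genes with a window. That 9.55% is not limited to the 19938 genes tested, for which the share was not computed. TGANTCA, the AP-1 motif, stood in 28.6% of the 28 inflammatory genes and in 8.97% of all genes with a window. A match is a description of letters and not a record of binding.

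Il6, the cytokine that drives the acute-phase response, was at 3.52, 3.53, 3.39, 3.55 and 3.60 in day 20 callus, against 5.75, 6.95, 8.15, 6.26 and 7.65 in day 5 callus. The day 20 values formed a tight band at the low end of the array's scale, and the day 5 values were spread widely above it. Cxcl2 was at 3.21, 4.50, 4.13, 3.81 and 4.25 at day 20, against 6.11, 7.25, 8.81, 7.68 and 8.73 at day 5. Il6 changed by -3.44 ± 0.44 and Cxcl2 by -3.74 ± 0.47 (SE; limma adjusted p = 6.7e-07 and 4e-07). Cxcl1 fell by 1.23 ± 0.25, with the lowest day 5 array, at 5.72, just above the highest day 20 array, at 5.68.

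Cxcl5, a further neutrophil chemokine, was at 3.88, 4.29, 5.08, 4.87 and 4.73 in day 20 callus, against 7.30, 9.21, 9.39, 7.45 and 9.48 in day 5 callus (15.9-fold lower, limma adjusted p = 4.4e-08). The monocyte chemokine Ccl2 was at 5.67, 6.51, 6.14, 6.74 and 6.50 at day 20, against 8.31, 9.15, 9.36, 9.0 and 10.0 at day 5, and its neighbour Ccl7 fell by 3.32 ± 0.39. Saa3, a local serum amyloid A, and Serpina3n, a protease inhibitor of the acute phase, fell by 2.64 ± 0.34 and 3.44 ± 0.27. None of these genes overlapped between the days. The cytokine Il1b lay between 6.89 and 8.12 at day 20 and between 7.61 and 8.44 at day 5, and did not pass the test (-0.51 ± 0.36). The genes that rose were Cxcl12, the chemokine that holds blood-forming cells in marrow (1.02 ± 0.16), and Csf1, the macrophage and osteoclast growth factor (0.51 ± 0.17). Both were named after their values were seen.

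Over the inflammatory list the median day 10 minus day 5 change was -0.83 and the median day 20 minus day 10 change was 0.04, steps that share arrays with the comparison. The median day 20 minus day 0 change was 0.00. At day 10 Il6 averaged 4.95 and Cxcl5 averaged 5.10, both between their day 5 and day 20 means. Without the 4 arrays that stood apart 19 of the inflammatory genes were called lower, and with the form of the sample name as a block 18. Of the interferon response list 1 of 25 genes rose and 3 fell, beside 9.85% and 7.38% of all genes. The share higher was under that of all genes and the share lower above it, and these few calls are no result about the list. Cxcl10, an interferon-induced chemokine, fell by 1.18 ± 0.34, and Cxcl9, induced by interferon gamma, changed by 1.33 ± 0.48 with limma adjusted p = 0.053. No interferon gene was called by limma with the form of the sample name as a block or without the 4 arrays that stood apart.

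Macrophage genes fell in 20 of 30 measured members with none higher, and the median change was -1.36. Cd163 was at 4.86, 4.4, 4.37, 4.58 and 4.31 in day 20 callus, against 6.36, 7.12, 6.80, 7.52 and 7.91 in day 5 callus (change -2.64 ± 0.29, limma adjusted p = 4.4e-08). Ms4a4a, a membrane protein of tissue macrophages, was at 5.69, 5.62, 5.30, 5.56 and 5.89 at day 20, against 7.52, 8.01, 8.01, 7.45 and 8.34 at day 5 (change -2.26 ± 0.24, limma adjusted p = 1.7e-08). Arg1, the arginase of repair macrophages, fell by 2.87 ± 0.28. The groups were separate for each of these 3 genes.

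General macrophage markers were less uniform. Adgre1, which encodes the macrophage antigen F4/80, averaged 7.50 ± 0.16 at day 20 and 8.45 ± 0.31 at day 5 (SD, n = 5 each; limma adjusted p = 0.0015). Csf1r, the receptor of the growth factor Csf1 on macrophages and osteoclast precursors, averaged 9.24 ± 0.26 at day 20 and 8.91 ± 0.38 at day 5, and the lysosomal marker Cd68 averaged 10.47 ± 0.46 and 10.13 ± 0.40. Neither Csf1r nor Cd68 passed the test. The count was 20 of 30 again without the 4 arrays that stood apart and with the form of the sample name as a block.

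Genes of regenerating muscle fell in 10 of 12 measured members with a median change of -1.49, while the list of adult skeletal muscle had 4 of 31 lower (12.9%, beside 7.38% of all genes) and a median of -0.50. Without the 4 arrays that stood apart the adult muscle median turned to 0.10 with 3 genes lower, and the regeneration median was -1.73 with 10 lower. Myh3, the embryonic myosin heavy chain, was at 4.95, 4.60, 4.71, 5.28 and 5.66 in day 20 callus, against 8.92, 9.02, 8.35, 6.64 and 7.91 in day 5 callus (8.72-fold lower, limma adjusted p = 6.4e-08). Mymk, or myomaker, which fuses myoblasts, was at 5.85, 5.52, 5.87, 6.19 and 6.47 at day 20, against 9.42, 9.43, 8.96, 7.39 and 9.0 at day 5. Replicate 4 was lowest at day 5 for both, and neither overlapped between the days.

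Myog, the transcription factor of differentiating myoblasts, fell by 2.44 ± 0.30 and Chrna1, the acetylcholine receptor subunit that spreads over immature or denervated fibres, by 2.45 ± 0.29 (limma adjusted p = 2.6e-07 and 2e-07). Of adult fibres, Ckm, the muscle creatine kinase, averaged 10.82 ± 0.61 at day 20 and 11.33 ± 0.39 at day 5, and Myh4, the fast myosin, averaged 10.53 ± 0.66 and 11.17 ± 0.42; neither passed the test. Tnnc1, the troponin of slow and immature muscle, did fall (-2.01 ± 0.37). Myh4 and Tnnc1 were lowest at day 20 in replicate 2.

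Of the fibrous matrix list 5 of 28 measured genes fell (17.9%, beside 7.38% of all genes) and 1 rose (3.6%, beside 9.85%). The median change was -0.10. There were 3 lower without day 20 replicate 3 or without day 5 replicate 2, and 6 lower and none higher, with a median of -0.41, without the 4 arrays that stood apart. Those that fell were Fbln2, the proteoglycan Vcan (-0.93), the cross-linking enzyme Loxl3 (-0.66) and Sfrp1 and Sfrp2, which the Wnt list holds too. Fbln2, a fibulin of provisional matrix, was at 6.68, 6.97, 6.53, 6.57 and 7.18 in day 20 callus, against 9.04, 9.49, 9.11, 8.0 and 9.51 in day 5 callus (change -2.24 ± 0.22, limma adjusted p = 4.2e-09). Has2, which makes hyaluronan and is not on the list, was at 4.59, 4.62, 4.64, 5.15 and 4.81 at day 20, against 7.07, 8.25, 8.40, 6.33 and 7.66 at day 5. The fibrillar and periosteal proteins Col3a1 (-0.46 ± 0.30) and Postn (-0.39 ± 0.33) did not pass the test, and Tnc, tenascin C, rose by 0.76 ± 0.22. Day 5 replicate 4 was lowest at day 5 for Fbln2, Has2, Col3a1, Postn and Tnc.

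Contractile and tendon genes fell in 5 of 11 with none higher. Acta2, the smooth muscle actin of myofibroblasts, averaged 7.78 ± 0.74 at day 20 and 9.14 ± 0.62 at day 5, and Thbs4, a thrombospondin of tendon and muscle, averaged 8.45 ± 0.42 and 9.99 ± 0.17 (SD, n = 5 each). Matrix proteases and their inhibitors divided, with 4 of 22 genes higher (18.2%, beside 9.85% of all genes) and 6 lower (27.3%, beside 7.38%). Mmp3, stromelysin, was at 6.02, 5.22, 5.18, 6.13 and 5.56 in day 20 callus, against 7.23, 7.62, 7.05, 7.59 and 7.32 in day 5 callus. Mmp16, a membrane-bound metalloprotease, was at 8.36, 8.62, 7.30, 8.63 and 8.40 at day 20, against 6.30, 7.05, 6.37, 5.36 and 5.71 at day 5 (change 2.11 ± 0.29, limma adjusted p = 1.8e-06). Timp1, the protease inhibitor, changed by -0.69 ± 0.29 and was not called.

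Vessel genes rose in 15 of 25 measured members with none lower and a median change of 0.53. Kdr, the main receptor of vascular endothelial growth factor, was at 7.34, 7.77, 6.57, 7.28 and 7.2 in day 20 callus, against 5.99, 6.41, 5.73, 6.10 and 5.71 in day 5 callus. The groups were separate by a small margin, and the change was 1.24 ± 0.18 (limma adjusted p = 3.3e-06). Aplnr, the apelin receptor of growing vessels, rose by 1.08 ± 0.23, Emcn, which marks sinusoids and the vessels that accompany bone formation, by 0.84 ± 0.18, and the junction protein Cdh5 by 0.77 ± 0.17. The pan-endothelial gene Pecam1 changed by 0.20 ± 0.13 and was not called. Over the list, 10 genes were called higher without the 4 arrays that stood apart and 14 with the form of the sample name as a block.

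Of 17 genes of red cells and their precursors 7 rose, with a median change of 1.18. Car1, a carbonic anhydrase of red-cell precursors, was at 11.22, 8.90, 11.23, 10.77 and 10.87 in day 20 callus, against 9.26, 7.95, 10.33, 8.64 and 6.61 in day 5 callus. The groups overlapped through replicate 2 of day 20 and replicate 3 of day 5, and the change was 2.04 ± 0.66 (limma adjusted p = 0.027). Rhag, the Rh-associated glycoprotein, and Alas2, which starts haem synthesis in red cells, rose by 2.01 ± 0.67 and 1.10 ± 0.38. The erythroid count was 13 without day 20 replicate 2, 2 or 3 without any of day 20 replicates 1, 3, 4 and 5 or day 5 replicates 2, 4 and 5, and 1 without the 4 arrays that stood apart. The day 20 minus day 0 median of the list was -1.24.

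T and NK cell genes rose in 14 of 27 measured members with none lower and a median change of 0.54. Cd3d, a chain of the T cell receptor complex, was at 4.66, 4.64, 8.65, 5.10 and 6.88 in day 20 callus, against 4.29, 3.50, 3.79, 4.73 and 3.48 in day 5 callus. Replicates 3 and 5 of day 20 were far above the rest, the other 3 day 20 arrays lay close to the day 5 arrays, and the groups overlapped slightly (change 2.03 ± 0.45, limma adjusted p = 0.0015). Cd8a, the co-receptor of cytotoxic T cells, was at 5.10, 4.97, 7.86, 5.39 and 6.93 at day 20, against 4.83, 4.29, 4.69, 5.09 and 4.48 at day 5. Nkg7, a granule protein of cytotoxic cells, rose by 1.47 ± 0.47. Without day 20 replicate 3, 8 of the 27 were called, and without the 4 arrays that stood apart 6 were called higher and 2 lower.

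Eosinophil genes, a list of 7, had 4 higher. Epx, eosinophil peroxidase, was at 4.95, 4.94, 4.90, 5.33 and 4.77 in day 20 callus, against 3.41, 4.06, 3.32, 3.3 and 3.31 in day 5 callus, without overlap (change 1.5 ± 0.23, limma adjusted p = 1.3e-05). Prg2, the eosinophil major basic protein, and Ear6, an eosinophil ribonuclease, rose by 1.81 ± 0.51 and 1.9 ± 0.46, and day 5 replicate 2 was the highest day 5 array for all 3. Of the list, 2 were called without the 4 arrays that stood apart. Of the 23 B cell genes 2 rose (8.7%, beside 9.85% of all genes), among them Vpreb1, a chain of the pre-B cell receptor, at 5.64, 5.75, 6.33, 7.30 and 7.35 in day 20 callus against 4.56, 5.11, 4.71, 5.21 and 5.04 in day 5 callus. The other lists of blood cells had 1 or 2 members called, named after their values were seen; apart from the platelet list, these shares are near those over all genes (9.85% higher, 7.38% lower) and are no result about the lists. Besides Mmp9, the neutrophil list of 21 had Stfa2, a cysteine protease inhibitor, lower (-1.81). The platelet list of 9 had Itgb3, an integrin shared with osteoclasts (2.01), and Treml1 (0.83) higher, and the plasma cell list of 10 had Sdc1 (0.56) higher. Of 13 mast cell and basophil genes Mcpt8, a basophil protease, rose (1.87) and Ms4a2, the receptor chain for IgE, fell (-0.40), and of 10 MHC II genes the protease gene Ctss fell (-1.02). Treml1, Sdc1 and Ms4a2 were not called without the 4 arrays that stood apart (limma adjusted p = 0.43, 0.35 and 0.44) or with the form of the sample name as a block (0.19, 0.14 and 0.11).

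None of 40 measured genes of G2/M and mitosis was called by limma, and 3 had an unadjusted p under 0.05 beside 30.4% of all genes. The median change was 0.03, and the list mean was 7.55, 6.59, 7.67, 7.08 and 7.18 at day 20, against 7.46, 7.51, 7.63, 6.35 and 6.94 at day 5. Day 20 replicate 2 and day 5 replicate 4 were the low arrays on each day. The median turned to -0.24 without the 4 arrays that stood apart, -0.16 without day 5 replicate 4 and -0.10 with the form of the sample name as a block, and was 0.18 without day 20 replicate 2. No mitosis gene was called by limma without the 4 arrays or with the name block, where 10 and 0 of 40 had an unadjusted p under 0.05, while 2 were called lower without day 5 replicate 4 and 3 higher without day 20 replicate 2. Array weights called 4 lower with a median of -0.16. Mki67, the proliferation antigen Ki-67, changed by 0.78 ± 0.28 (limma adjusted p = 0.052), and Top2a, the topoisomerase of dividing cells, by 0.51 ± 0.22 (limma adjusted p = 0.12). Of 31 genes of G1/S and DNA replication 1 rose, the helicase subunit Mcm7 (0.72 ± 0.24), and 1 fell, Gins2 of the same helicase complex (-0.59 ± 0.15), both under the shares over all genes. The median of that list was 0.14, and -0.13 without the 4 arrays that stood apart.

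In young mice the comparison of the same days, measured on 10 other arrays, had 25 of the 40 mitosis genes lower and none higher, with a median of -0.66, beside 11.5% of all genes called lower there. The median difference in change between old and young mice over the list was 0.68. No mitosis gene passed the limma test of that difference, and 24 of the 40 had an unadjusted p under 0.05, against 11.3% of all genes. That difference rested in part on the arrays that stood apart: its median was 0.38 without the 4 of them, with 3 of 40 at an unadjusted p under 0.05, and 0.48 without day 5 replicate 4, with 9 of 40. With array weights it was 0.45, with 11 of 40. Ccnb2, a mitotic cyclin, averaged 9.29 at day 20 and 8.87 at day 5 in old mice, against 8.99 and 9.43 on those days in young mice; the difference in change was 0.86 ± 0.31 (limma adjusted p = 0.26). Erythroid precursors divide. At day 20 the erythroid means of replicates 1 to 5 were 8.43, 6.46, 8.90, 7.87 and 8.36, and at day 5 they were 7.55, 6.20, 7.99, 6.43 and 5.74. At day 20 the replicates ran in the same order on the erythroid and mitosis lists, from 3 as the highest through 1, 5 and 4 to 2. At day 5 replicate 3 was highest on both lists, but the rest did not keep 1 order. Day 5 replicate 2 was low for erythroid genes (6.20) and high for mitosis genes (7.51). The part of red-cell precursors in the mitosis values was not tested.

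Of 20 hypoxia and glycolysis genes 5 fell and none rose, and 3 fell without day 20 replicate 1 or with the form of the sample name as a block. Egln3, a prolyl hydroxylase induced by low oxygen, was at 5.64, 5.23, 5.24, 5.68 and 5.82 in day 20 callus, against 6.85, 6.63, 7.08, 8.37 and 7.41 in day 5 callus (change -1.74 ± 0.23, limma adjusted p = 8.8e-07). Adm, the vessel-dilating peptide adrenomedullin, and Slc2a1, the glucose transporter GLUT1, fell by 1.29 ± 0.19 and 0.98 ± 0.15, both without overlap. Immediate early and heat shock genes had 7 of 19 lower, among them Ier3 (-1.73 ± 0.21) and Fos (-0.87 ± 0.25), and 3 without the 4 arrays that stood apart or with the form of the sample name as a block.

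Clock genes had 8 of 15 lower (53.3%, beside 7.38% of all genes) and 1 higher (6.7%, beside 9.85%). Per1, a core clock repressor that glucocorticoids also induce, was at 6.02, 7.02, 6.85, 5.97 and 6.71 in day 20 callus, against 6.81, 8.18, 8.48, 8.30 and 9.0 in day 5 callus (change -1.64 ± 0.27, limma adjusted p = 2.9e-05). Per2 fell by 0.69 ± 0.11. Nr1d1 and Dbp, direct targets of the clock, had changes of -0.66 ± 0.26 and -0.39 ± 0.19 that did not pass the test. The hour of collection is not in the labels, and without the 4 arrays that stood apart 3 clock genes were called lower.

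Of the remaining lists, adipocyte genes had 4 of 15 higher (26.7%, beside 9.85% of all genes) and 1 lower (6.7%, beside 7.38%). With the form of the sample name as a block 2 were higher. Lpl, the lipoprotein lipase of fat and muscle, was at 9.77, 10.24, 9.56, 9.76 and 9.99 in day 20 callus, against 7.96, 8.07, 8.09, 9.45 and 8.33 in day 5 callus (change 1.48 ± 0.22, limma adjusted p = 6.6e-06), and the adipocyte hormone Adipoq changed by 0.90 ± 0.34 (limma adjusted p = 0.064). Day 5 replicate 4 was the highest day 5 array for both. Collagen folding and secretion had 4 of 17 higher (23.5%) and 1 lower (5.9%), and none higher without the 4 arrays that stood apart. Mitochondrial respiration had 3 of 29 higher (10.3%) and 2 lower (6.9%), shares near the 9.85% and 7.38% of all genes. The 2 lower were the muscle and heart subunits Cox6a2 (-1.04) and Cox8b (-1.01), and neither was called without the 4 arrays that stood apart (limma adjusted p = 0.21 and 0.25) or with the form of the sample name as a block (0.21 and 0.19). The senescence and secreted factor list had 5 of 14 lower, namely Il6, Cxcl1, Ccl2, Mmp3 and the urokinase receptor Plaur (-1.02). Schwann and nerve genes had 3 of 10 lower (Pmp22, Ncam1 and Erbb3), of which Ncam1 alone was called without the 4 arrays that stood apart and none with the form of the sample name as a block. The epidermis list had 1 of 12 lower (8.3%, near the share over all genes), Trp63 (-1.05). Trp63 was not called without the 4 arrays that stood apart, among them day 5 replicate 5 with the high epidermis mean (-0.39, limma adjusted p = 0.36), or with the form of the sample name as a block (limma adjusted p = 0.062).

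**Figure D4:**
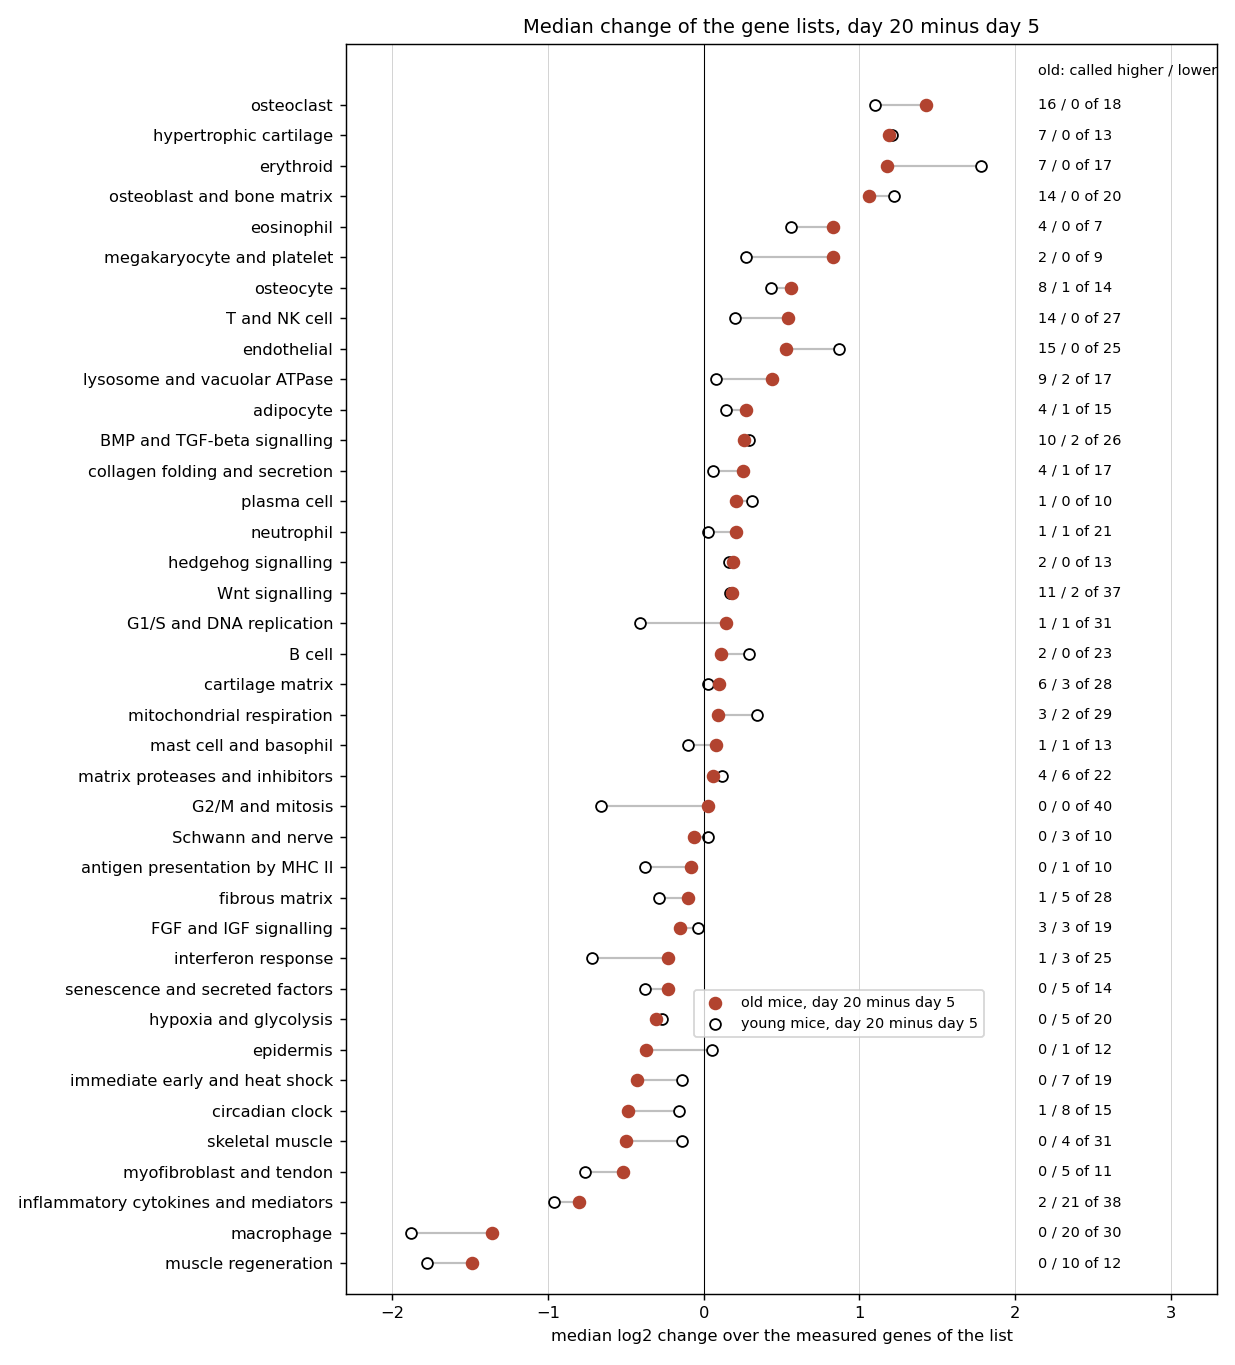
Median log2 change, day 20 minus day 5 (horizontal axis), of each gene list (rows), in old mice as filled red circles and in young mice as open circles; the text at the right gives how many measured genes were called higher and lower in old mice. Old-mouse medians run from 1.43 for osteoclast genes to -1.49 for muscle regeneration, and the G2/M and mitosis list is at 0.03 in old and -0.66 in young mice, the old value being -0.24 without the 4 arrays that stood apart.

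Of the 1963 genes higher at day 20, the day 10 mean lay between the other 2 days for 1236, above both for 555 and below both for 172. Of the 1471 genes lower at day 20, it lay between for 936, below both for 335 and above both for 200. Osteoclast genes moved in both steps, with a median of 0.78 from day 5 to day 10 and 0.54 from day 10 to day 20, whereas the osteoblast medians were 0.82 and -0.05. The erythroid medians were -1.55 and 2.72. All these steps share arrays with the day 20 minus day 5 comparison.

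The same comparison in young mice rested on 5 arrays a day, none of them shared with the old mice, and called 5436 genes (27.3%), 3148 higher (15.8%) and 2288 lower (11.5%). All 5 young day 20 names begin with a digit and all 5 young day 5 names with a letter. The form of the name thus coincides with the day in young mice and nearly does so in old mice, so the calls shared by both ages are not free of it. With that form as a block, 2828 genes were called in young mice. Of the genes called higher in old mice, 1298 were also called higher in young mice, which is 66.1% of the old and 41.2% of the young calls. Of those called lower, 909 were shared, 61.8% of the old and 39.7% of the young calls, and 2 genes were called in opposite directions. Among the largest changes, Slitrk6 changed by 2.71 in old and 2.72 in young mice, Il6 by -3.44 and -3.52, and Mmp9 by 2.42 and 2.36.

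The test of the difference between ages called 1 gene of 19938 (0.00502%), while 2247 genes (11.3%) had an unadjusted p under 0.05. That gene was Asrgl1, an asparaginase-like enzyme. Asrgl1 was at 7.37, 7.44, 7.59, 7.46 and 7.41 in day 20 callus of old mice, against 7.38, 7.43, 7.63, 8.26 and 7.81 in their day 5 callus, where replicates 4 and 5 were the high ones. In young mice it lay between 7.55 and 7.92 at day 20 and between 6.71 and 7.10 at day 5, so that the ages parted mainly at day 5. The change was -0.25 ± 0.11 in old and 0.79 ± 0.11 in young mice, a difference of -1.04 ± 0.16 (limma adjusted p = 0.0014). With only the 4 groups compared in the fit, Asrgl1 was not called (SE 0.19, limma adjusted p = 0.21) and the 1 gene called was Ccl8.

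In the macrophage list 13 of 30 genes had an unadjusted p under 0.05 for the difference between ages, and none passed the adjusted test. The median change of the list was -1.36 in old and -1.88 in young mice, where 24 of 30 fell. Ms4a4a changed by -2.26 in old and -3.37 in young mice (difference 1.11 ± 0.34, limma adjusted p = 0.18), and Adgre1 by -0.95 and -1.92 (difference 0.96 ± 0.30, limma adjusted p = 0.19). At day 20 Adgre1 lay between 7.22 and 7.64 in old mice and between 6.33 and 7.39 in young mice, with overlap. Interferon response genes had 3 of 25 lower in old and 16 lower in young mice, beside 7.38% and 11.5% of all genes at those ages. For the difference 4 of 25 had an unadjusted p under 0.05, beside 11.3% of all genes, and none was called.

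**Figure D5:**
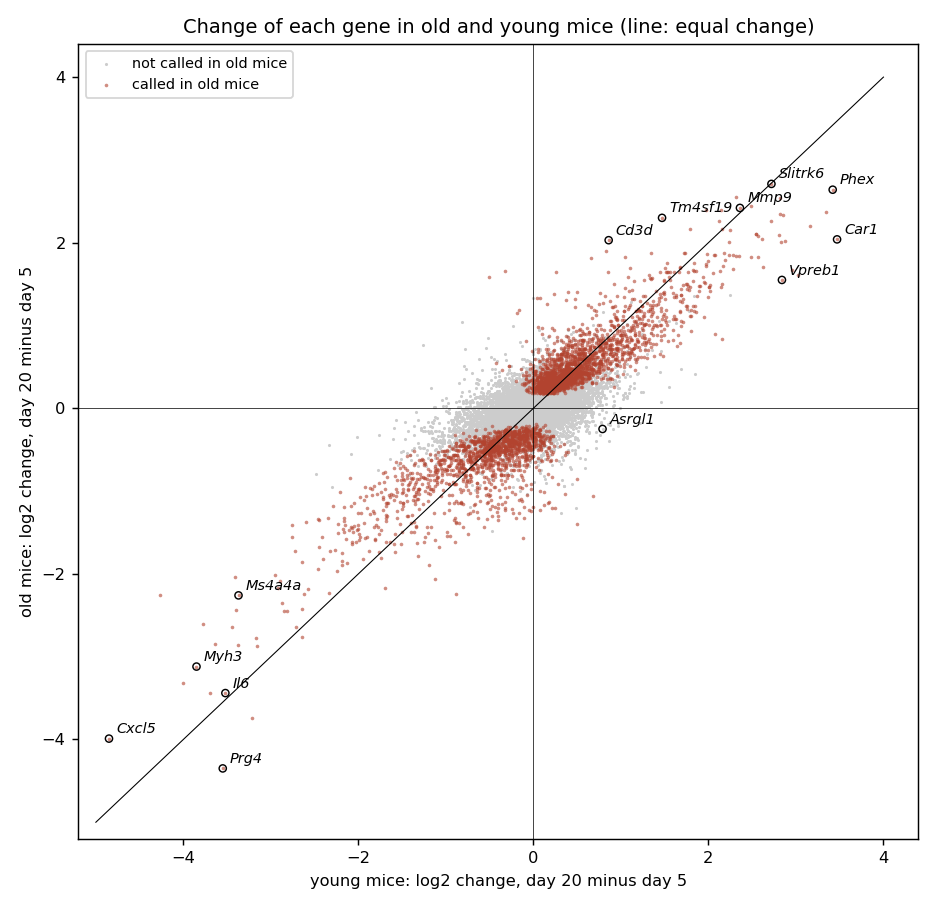
Log2 change, day 20 minus day 5, of each of 19938 genes in old mice (vertical axis) against that in young mice (horizontal axis); red points were called in old mice, grey points were not, the diagonal marks equal change and ringed genes are named in the text. Most red points lie on the same side of zero at both ages, and Asrgl1, at -0.25 in old and 0.79 in young mice, is the gene called in the test of the difference, with all 41 arrays in the fit.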

How the data were processed

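RNA (whole bone or callus) was amplified and hybridised to Affymetrix Mouse Gene 1.0 ST arrays, 1 array per mouse, per the labels' protocols. The values are the log2 normalised intensities deposited by the authors, made in Partek per the submitters' processing notes; their normalisation method is stated in none of the sources used. The authors' deposited table also holds analysis of variance p-values, which called 20235 of 28815 probe sets for day and 1 for age by day, and, per the file headers, a fold ratio of old mice against day 0 at days 5 and 20, which was compared with the deposited values only.

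Of 28815 probe sets, 21782 named 1 gene, and the brightest probe set stood for each of 19938 genes, 999 of which had several. Genes were fitted in R 4.3.3 with limma 3.58.1 (lmFit, eBayes) in 1 model of 8 groups and 41 arrays, with Benjamini-Hochberg adjustment over all genes. Tables and figures were made with Python 3.11.15, numpy 2.4.6, pandas 2.3.3 and matplotlib 3.10.9. The fit was tested on simulated data with 200 changed genes. Groups follow the sample titles, the labels state that each group held different mice, and the number of arrays limits the precision.

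The text names the 14 highest and 14 lowest called changes without overlap (predicted genes and olfactory receptors skipped), the gene called for the difference between ages, and from each list its key members and the 4 largest changes; other genes were chosen after their values were seen. The members and lists were chosen with earlier results of these data known. The labels do not say that a replicate number marks a shared batch, so the main fit holds no replicate block. Promoter sequences come from RefSeq, GRCm38.p6.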

Additional observations from a re-analysis of the deposited data

Results flagged for a closer look

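Dixon's test for a lone extreme value (critical value 0.71 for 5 arrays) was applied to 318 groups of 5 values, namely the genes and list means described above in old mice at day 20 and at day 5. It marked 24 of them (7.5%), where chance marks about 1 in 20, and 8 of the 24 were day 20 replicate 2, 4 were day 20 replicate 3 and 5 were day 5 replicate 4.

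Day 20 replicate 2 was lowest of its day for Car2 (8.92, the others 10.55 to 11.19), Car1 (8.90), Adgre1 (7.22), Myh4 (9.37), Tnnc1 (5.84) and Thbs4 (7.72), and for the means of the neutrophil list (8.35) and the skeletal muscle list (8.07). Day 20 replicate 3 was lowest for Atp6v0d2 (10.32, the others 10.78 to 10.91), Atp6v1b2 (9.74), Mmp16 (7.30) and Slitrk6 (5.98). Day 20 replicate 5 was highest for Myog (5.72, the others 5.06 to 5.23).

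Day 5 replicate 4 was lowest of its day for Sfrp1 (6.94, the others 8.90 to 9.62), Mymk (7.39), Myog (6.26) and Col3a1 (8.91), and highest for Lpl (9.45, the others 7.96 to 8.33). Day 5 replicate 1 was lowest for Arg1 (5.98, the others 7.75 to 8.01) and highest for Clec3a (6.47). Day 5 replicate 2 was highest for Ptch1 (7.44), Epx (4.06) and the mean of the eosinophil list (5.07). Day 5 replicate 5 was highest for the mean of the epidermis list (6.19, the others 4.48 to 4.71).

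Asrgl1 was the gene whose change differed between ages in the limma test, by -1.04 (old minus young, limma adjusted p = 0.0014). Its change in old mice was -0.07 without the 4 arrays that stood apart. Why these arrays differ was not tested.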

How the results depend on the processing

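The count of 3434 genes called in old mice lay between 2883 and 3469 with array weights, quantile or median centring, the mean of probe sets, other moderation of the variance, the replicate number as a replicate block (3335) or without the dimmest 25% of genes. It was 1696 with only the groups compared, 1619 with the form of the sample name as a block, 370 with the single day 5 array whose name begins with a digit (assumed to vary like the other groups), 1581 without the 4 arrays that stood apart (chosen after the data were seen), 2161 without the dimmest 50% and 535 with a minimum of 2-fold, and between 2453 (without day 5 replicate 5) and 3363 when 1 array was left out. The split in old mice, 1963 higher and 1471 lower, also depended on the processing. It was 1616 higher and 1599 lower with quantile normalisation, 1702 and 1519 with median centring, and 1028 and 1133 without the dimmest 50%. The count of 5436 in young mice was 2828 with the name block, 3567 without the dimmest 50% and 822 at 2-fold. The single gene for the difference between ages, Asrgl1, was lost with only the groups compared, where Ccl8 was called in its place (Asrgl1 adjusted p = 0.21, against 0.00024 to 0.015 in the other settings); the count was 2 under quantile normalisation, and leaving out 1 array gave 1 to 30 (30 without day 5 replicate 1, 16 without day 20 replicate 1, 11 without day 5 replicate 2). Of 94 named genes called, none turned direction and 82 were called whichever array was left out; 40 were called in every setting that tested them. Of named genes not called, Acan turned to -0.31 with array weights, -0.22 with the name block, -1.15 within digit names and -1.09 without the 4 arrays, and lay between -0.45 and 0.36 with 1 array left out (-0.38 without day 20 replicate 2, -0.12 without day 20 replicate 5, -0.24 without day 5 replicate 5); Ibsp turned to -0.05 without the 4 arrays, and Asrgl1 to 0.07 within digit names. Of the 5 pairs of old-mouse arrays with the same replicate number, 4 correlated above 0.1 (-0.046 to 0.334), as did 3 of 20 pairs with different numbers, and 4 of 5 day 20 arrays and 3 of 5 day 5 arrays correlated best with their own number, a hint from the data and not the design. The cause was not tested. Fewer arrays or genes enter several of these settings, and 5 arrays a group and dim signals limit what small changes can be seen.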

Other observations

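Gene families were looked at by symbol after the values were seen, so their counts are descriptions, to be read beside 9.85% of all genes called higher and 7.38% called lower. Of 73 genes of the guidance families (Slit, Slitrk, Robo, semaphorins, plexins, ephrins and their receptors, Unc5, netrins) 25 were higher at day 20 and 1 was lower, with a median change of 0.17 in old and 0.18 in young mice. The 25 include Slitrk6, already described among the largest rises. Slit2, a secreted guidance protein of nerves and vessels, changed by 2.08 ± 0.27, Sema5a, a transmembrane semaphorin, by 1.85 ± 0.22, and Unc5c, a netrin receptor, by 1.53 ± 0.18 (limma adjusted p = 7.8e-07, 1.2e-07 and 1.1e-07), while the relative Unc5a changed by -0.82. Of 34 protocadherins, adhesion proteins best known from neurons, 17 were higher and 1 was lower (Pcdh19, -0.95). Pcdhb16 changed by 1.29 ± 0.19, and the beta protocadherins are related genes whose probes may read one another.

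The next 3 families share members with the lists described above. Of 44 collagen chain genes 12 were higher, 6 of them on a list, and none was lower. Col24a1, a collagen known from forming bone, changed by 1.5 ± 0.22, and Col22a1, known from tissue junctions, by 1.16 ± 0.17 (limma adjusted p = 5e-06 and 3.8e-06). Of 24 subunits or partners of the vacuolar proton pump 12 were higher, 6 of them on a list, and 1 was lower. Of 19 CC chemokine genes 7 were lower, 6 of them on a list, among them Ccl12 (-2.60) and Ccl8 (-2.25), and Ccl5, made by T and NK cells, was higher (1.26). Of 67 genes with symbols that begin with Rpl or Rps and a digit, 11 were lower and none was higher, with changes between -0.73 and -0.21. Such symbols belong to ribosomal proteins, but the Rps6k kinases match them too.

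The dimmer part of the genes (9969, by mean over all arrays) had 963 called higher and 357 lower. The brighter part, of the same size, had 1000 higher and 1114 lower. In both parts the share higher was near the 9.85% of all genes. The share lower was under the 7.38% of all genes in the dimmer part and above it in the brighter part. Of 1027 olfactory receptor genes, which bone and callus are not known to use, 121 were called higher and 13 lower. The share higher was near the 9.85% of all genes, and the share lower was well under their 7.38%. The median change was 0.113 and the median size of called changes was 0.3.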
